A study of Arabidopsis thaliana with 30 samples.

Results

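The response of the root epidermis to acidic medium was compared with the mean response of the 3 tissues inside it, cortex, endodermis and stele, in Arabidopsis thaliana. Signals are MAS5 values of Affymetrix ATH1 arrays, hybridised with amplified RNA, and a constant of 12 was added before log2 was taken. The response of a tissue is the log2 signal at pH 4.6 minus that at pH 5.7, and the difference described throughout is the epidermis response minus the mean of the 3 inner responses. It used 24 of the series' 30 arrays, 6 of epidermis and 18 of inner tissues, and it was taken for all 22746 probe sets that are not Affymetrix controls. Seedlings of the Columbia ecotype grew for 5 days on Murashige and Skoog medium with MES, sucrose and agar at pH 5.7, and spent the next 24 h on medium at pH 4.6 or pH 5.7. Both transfer media held 3 mM DMG and differed in pH alone, and pH 5.7 was the control in every comparison. Roots of 6 days were turned into protoplasts, and GFP-positive cells were sorted by fluorescence.

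The epidermis arrays came from the pWER::GFP line, which also marks the lateral root cap, so both cell types share these arrays. Cortex cells came from pCOR315.1::GFP, endodermis cells with the quiescent center from pSCR::GFP, and stele cells from pWOL::GFP. Columella cells from Pet111::GFP made up the other 6 arrays and were kept out of the comparison. Each tissue had 3 arrays at each pH. The labels do not say that the 3 came from separate cultures, so a p-value here covers only how far these arrays differ among themselves, and that spread may be technical. In sorted cells, fewer cells of a type and less RNA per cell cannot be told apart.

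The epidermis is the root's outer layer. It meets the medium directly and carries the root hairs, whose tip growth depends on loosening the cell wall, a process that extracellular pH is known to influence. An acidic medium raises the proton load on root cells, which plasma membrane proton pumps, cytosolic buffering and organic acid metabolism counter. Mitochondria have alternative dehydrogenases and oxidases that bypass proton pumping, and transcripts of several of them are well known to rise under many stresses.

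The median signal of the 24 arrays lay between 43.8 and 71.7, and between 45.3 and 54.0 in epidermis. Within a group of the 4 compared tissues, 2 arrays correlated with r of 0.957 to 0.981 over the probe sets, which are not independent replicates. Of 9 epidermis and root cap markers, EXPA7 and EXPA18 were measured. Their summed signal was 2809 to 8896 in epidermis at pH 5.7 and 1046 to 1559 at pH 4.6. In stele it was 1485 to 3303 at pH 5.7 and 548 to 933 at pH 4.6, and in cortex and endodermis it was at most 212. The stele sums at the 2 pH values did not overlap, though neither gene passed the test in stele (adjusted p = 0.0696 and 0.341). The 4 cortex markers summed to 169 to 347 in epidermis at pH 5.7 and to 105 to 142 at pH 4.6, against 6920.3 to 7904 and 2646 to 3885 in cortex. These cortex sums did not overlap either, and 2 of the 4 markers fell in epidermis, 2 in cortex and 3 in the inner mean. Of all probe sets, 1.78% fell in epidermis, 4.45% in cortex and 9.74% in the inner mean. GSO1, the 1 endodermis marker of 7 that was measured, had 51.1 to 103 at pH 5.7 and 35.1 to 59.9 at pH 4.6 in epidermis, and 6901 to 7232 and 3008 to 5973 in endodermis. Cortex and stele held GSO1 signal too. It was 829 to 2698 at pH 5.7 and 291 to 609 at pH 4.6 in cortex. In stele it was 1271 to 1814 and 993 to 1454. The GSO1 response was called in cortex (-1.87) and in the inner mean (-0.90). The 2 measured stele markers of 9, PHV and LHW, set epidermis apart less, with sums of 122 to 324 in epidermis and 311 to 986 in stele. Their sums were 256 to 415 in cortex and 256 to 615 in endodermis, which overlap those of stele. The 3 prime to 5 prime ratio of the GAPDH control changed with low pH by -0.19 in epidermis on the log2 scale, by -0.999 in cortex, by -0.55 in endodermis and by -0.14 in stele. The exact permutation p was 0.1 in epidermis, cortex and endodermis, the smallest possible with 3 against 3 arrays, and 0.7 in stele. The same ratio of the Ubq control changed by 0.0973 in epidermis (exact permutation p = 0.3), by -0.64 in cortex (0.1), by -0.03 in endodermis (0.8) and by 0.14 in stele (0.5). The part of these marker and control values in the differences below was not tested.

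In the outermost tissue, CP1, a papain-like cysteine protease, and AT3G21690, of the MATE efflux family, rose more than inside, while GH9B17, a wall endoglucanase, fell. AT1G24095 and AT2G32020, an acetyltransferase of the GNAT family, rose in all 3 inner tissues and not detectably in epidermis. The difference passed an adjusted p of 0.05 (limma, Benjamini-Hochberg over all probe sets) for 101 probe sets, which is 0.444% of 22746. It was positive for 51 of them, 0.224%, and negative for 50, 0.22%. At an unadjusted p under 0.05 there were 2132. The smallest difference called was 0.69 on the log2 scale, the median 1.504 and the largest 3.38, and 50 of the 101 probe sets had 1 named gene. The sign was the same against each of the 3 inner tissues for 100 of the 101. The 101 were chosen on the mean of these 3 differences, which share the epidermis arrays. Agreement of sign was therefore likely beforehand and is not separate support.

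**Figure D1:**
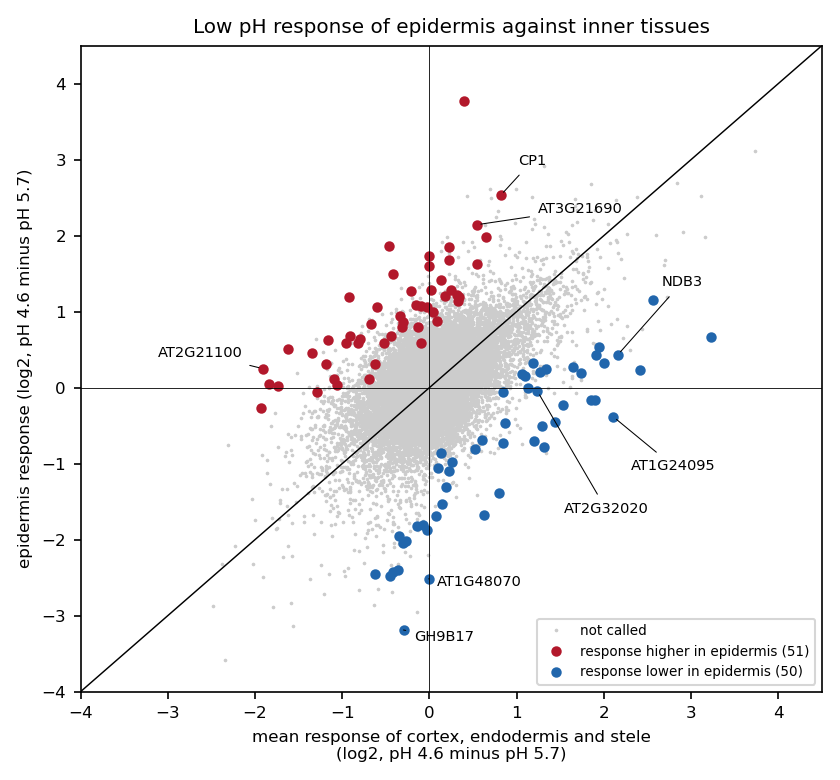
Each point is 1 of 22746 probe sets, with the mean response of cortex, endodermis and stele on the horizontal axis and the epidermis response on the vertical axis, both in log2 units (pH 4.6 minus pH 5.7). Red points (51) lie above the diagonal and blue points (50) below it; they passed the test of the difference, and many lie near 1 of the axes, where 1 of the 2 responses is near 0.

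The separate responses give the frame for this count. The epidermis response was called for 1206 probe sets (5.30%), 801 higher (3.52%) and 405 lower (1.78%). The mean inner response was called for 5202 (22.9%), 2986 higher (13.1%) and 2216 lower (9.74%). Setting the array medians equal turned these splits to 547 higher and 551 lower in epidermis, and 2348 higher and 2872 lower inside. The inner mean rests on 18 arrays and epidermis on 6, so the median standard error was 0.16 for the inner mean, 0.28 for epidermis and 0.32 for the difference. The counts of the separate responses therefore do not compare the tissues' sensitivity. Of the 2986 probe sets that rose inside, 618 (20.7%) rose in epidermis and 2 fell there. Of the 2216 that fell inside, 224 (10.1%) fell in epidermis and 3 rose. Across all probe sets the 2 responses correlated with r of 0.57, and with 0.65 over the 14269 with a mean signal of 50 or more in at least 1 group. These values describe these arrays, since probe sets share libraries and noise.

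Taken tissue by tissue, the epidermis response differed from that of cortex for 197 probe sets (0.866%), 99 higher (0.435%) and 98 lower (0.431%). Against endodermis there were 122 (0.536%), 70 higher (0.308%) and 52 lower (0.229%), a split of 36 and 56 with equal array medians. Against stele there were 6 (0.0264%), 1 higher (0.0044%) and 5 lower (0.022%). All 3 comparisons had the same median standard error of 0.39, and the unadjusted counts were 2456, 2296 and 1766. Of the 101 probe sets, 73 were also called against cortex alone, 56 against endodermis alone and 4 against stele alone. These comparisons share the epidermis arrays. The part of the EXPA7 and EXPA18 signal of the stele arrays in this order was not tested. By themselves, cortex rose for 7.04% of probe sets and fell for 4.45% (11.5% in all), endodermis for 5.43% and 4.18% (9.61%), and stele for 1.97% and 1.41% (3.39%).

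The 101 probe sets were sorted by which of the separate responses passed its own test, as a description of what had been called. Among the 51 positive differences, 20 rose in epidermis with no inner call and 21 fell inside with no epidermis call. A further 7 rose on both sides, more in epidermis, and 3 rose in epidermis and fell inside. Among the 50 negative differences, 27 rose inside with no epidermis call and 19 fell in epidermis with no inner call. Of the remaining 4, 2 fell in epidermis and rose inside, 1 fell on both sides, and 1 rose on both sides, more inside. A response with no call is not shown to be absent.

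Uneven brightness went with many of these calls. In 23 of the 101 (22.8%), an inner tissue was at least 4-fold brighter than epidermis, against 9.65% of all probe sets. In 29 (28.7%), epidermis was at least 4-fold brighter than an inner tissue, against 8.46% of all. A tissue whose signal lies near the added constant of 12 can show little change on the log2 scale. Leaving out every probe set with such a gap left 49 calls.

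Single arrays decided part of the count. Without 1 epidermis array at pH 4.6 the count was 30, 32 or 47 for replicates 1, 2 and 3. At pH 5.7 it was 219 without epidermis replicate 2 and 30 without replicate 3. Leaving out cortex replicate 1 or 3 at pH 4.6 gave 67 or 61, and leaving out cortex replicate 2 at pH 5.7 gave 66. Leaving out endodermis replicate 1 at pH 5.7 gave 64, stele replicate 2 at pH 4.6 gave 66, and stele replicate 2 at pH 5.7 gave 61. Other inner arrays raised the count when left out. It was 136 without stele pH 5.7 replicate 3, 130 without endodermis pH 4.6 replicate 1 and 113 without cortex pH 5.7 replicate 3. Of the 50 named genes, 37, 39 and 32 lost the call without epidermis pH 4.6 replicates 1, 2 and 3, and 28, 11 and 40 without pH 5.7 replicates 1, 2 and 3. No named gene changed sign in any of 36 alternatives. Among them 5 were called in every alternative: CP1, AT3G21690, GH9B17, AT1G24095 and AT2G32020. Where losses are given below as arrays left out, other settings could end the call too. The genes described below that were called in 24 or fewer alternatives each lost the call without several single arrays, of inner tissues as well as epidermis. The other 45 lost the call in at least 1, and 21 genes were called in at least 30. The genes last inside the threshold were SDRB and AT3G07070 (both adjusted p = 0.0475) and AT5G12340 (just under 0.05), and the first outside were AT1G17310 (0.0503), AT1G22430 (0.0513) and CSA1 (0.0535).

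The first genes to describe rose in epidermis by more than they rose inside. CP1 had signals of 304, 209 and 279 at pH 5.7 and 1683, 1664 and 1364 at pH 4.6 in epidermis. In cortex they were 60.8, 38.8 and 48.8 at pH 5.7 and 97.3, 84.3 and 89.5 at pH 4.6, and in endodermis 38.2, 33.7 and 54.7 at pH 5.7 and 55.2, 69.2 and 51.4 at pH 4.6. In stele they were 303, 324 and 339 at pH 5.7 and 858, 944 and 666 at pH 4.6. The groups did not overlap between pH values in epidermis, cortex or stele, and in endodermis they overlapped. The epidermis response was 2.53 ± 0.19, a fold of 5.77 on the scale of signal + 12, against 0.82 ± 0.11 for the inner mean, a difference of 1.71 ± 0.22 (adjusted p = 0.000341). The difference was 2.14 ± 0.27 against endodermis (adjusted p = 0.00032), 1.78 ± 0.27 against cortex (0.00195) and 1.22 ± 0.27 against stele, where it did not pass (0.0927).

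AT3G21690 belongs to the MATE family of efflux carriers. Its epidermis signals were 322, 249 and 271 at pH 5.7 and 1779, 925 and 1255 at pH 4.6. In cortex they were 1222, 1024 and 812 at pH 5.7 and 1724, 1319 and 1538 at pH 4.6, in endodermis 1273, 865 and 986 at pH 5.7 and 1298, 1669.6 and 1139 at pH 4.6, and in stele 459.7, 546 and 520.0 at pH 5.7 and 1049.9, 719 and 683 at pH 4.6. Every epidermis array at pH 5.7 lay below every inner array, and at pH 4.6 the tissues overlapped. The response was 2.14 ± 0.22 in epidermis and 0.54 ± 0.13 in the inner mean, a difference of 1.600 ± 0.26 (adjusted p = 0.00357).

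NANA, an aspartic protease, was likewise lowest in epidermis at pH 5.7. Its epidermis signals were 442, 324 and 304 at pH 5.7 and 1946, 1165 and 1289 at pH 4.6, while cortex had 4792, 3907 and 3423 at pH 5.7 and 4908, 4144 and 3980.2 at pH 4.6. Epidermis rose by 1.99 ± 0.23, and cortex, with the highest signals at both pH values, changed by 0.11 ± 0.23 (adjusted p = 0.852). The difference from the inner mean was 1.33 ± 0.26 (adjusted p = 0.023). It was called in 33 of 36 alternatives, and was lost without epidermis pH 4.6 replicate 1, without epidermis pH 5.7 replicate 3 and without cortex in the inner mean. LTI30, a dehydrin, and SDRB, a short-chain dehydrogenase-reductase, completed the named genes that rose on both sides. LTI30 rose in epidermis from 2163, 2469.9 and 2179 to 4721, 4836 and 6065 and differed by 0.84 ± 0.19 (adjusted p = 0.0471). SDRB rose from 403, 562 and 489.9 to 1144, 1087 and 1164 and differed by 0.900 ± 0.204 (adjusted p = 0.0475). Both had higher signals in cortex and endodermis than in epidermis at pH 5.7, and their calls were held in 12 of 36 and 11 of 36 alternatives. The adjusted p ranged over these from 0.0095 to 0.168 for LTI30 and from 0.0075 to 0.158 for SDRB.

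**Figure D2:**
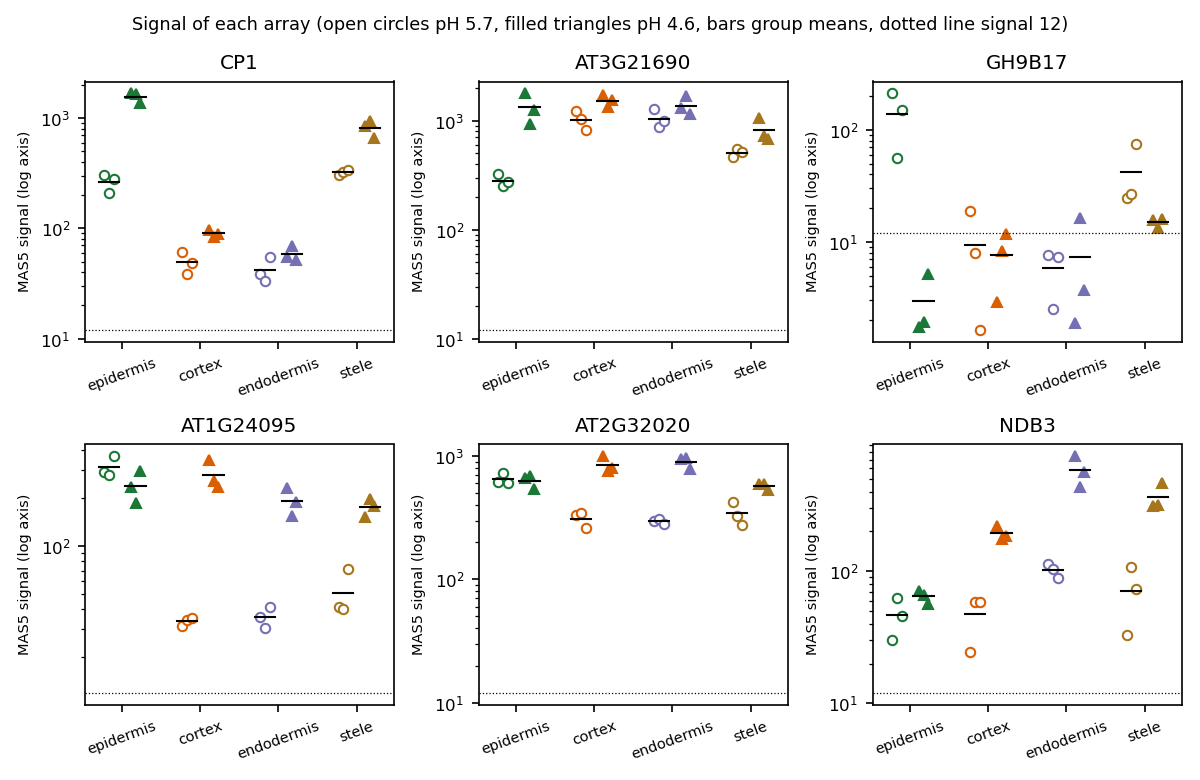
MAS5 signal of each array on log axes for CP1, AT3G21690, GH9B17, AT1G24095, AT2G32020 and NDB3 in the 4 tissues, with open circles for pH 5.7, filled triangles for pH 4.6, bars for group means of 3 arrays and a dotted line at the added constant of 12. CP1 and AT3G21690 rise most in epidermis, GH9B17 falls under the line there, and AT1G24095, AT2G32020 and NDB3 rise in the inner tissues.

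Next come the genes that rose in epidermis while the inner mean was not called. UGT74B1, a glucosyltransferase of glucosinolate synthesis, had epidermis signals of 400.1, 527 and 358 at pH 5.7 and 725, 706 and 918 at pH 4.6. In cortex they were 903, 953 and 624 at pH 5.7 and 644, 446 and 672 at pH 4.6, and in endodermis 663, 621 and 521 at pH 5.7 and 340.4, 459.9 and 428 at pH 4.6. The pH groups did not overlap in epidermis, where the signal rose, nor in endodermis, where the response was -0.55 (adjusted p = 0.11). The difference was 1.16 ± 0.25 (adjusted p = 0.0349), called in 24 of 36 alternatives. AT5G12340 went from 92.8, 114 and 50.04 to 320.3, 323 and 329 in epidermis, while its endodermis signals were 714, 419 and 595 at pH 5.7 and 273, 783 and 769.6 at pH 4.6. The epidermis groups lay apart and the endodermis groups overlapped, with a difference of 1.62 ± 0.37 (adjusted p = 0.049997) that was called in 13 of 36 alternatives.

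A further pair of genes from this class was dim in epidermis. Both epidermis means lay under a signal of 50 in 3 of its 20 probe sets, against 47.4% of all. AT5G53990, of the glycosyltransferase family, had 10.4, 2.84 and 1.61 at pH 5.7 and 42.4, 40.2 and 45.8 at pH 4.6 there, and 163, 206 and 189 at pH 5.7 and 87.8, 209.6 and 218 at pH 4.6 in endodermis. Epidermis rose by 1.73 ± 0.31, and the difference was 1.73 ± 0.36 (adjusted p = 0.0297), lost without any epidermis array at pH 4.6 or epidermis pH 5.7 replicate 3. AT5G05180 had 1.36, 3.42 and 0.874 at pH 5.7 and 11.8, 35.1 and 40.2 at pH 4.6 in epidermis and 87.3, 70.2 and 38.2 at pH 5.7 and 18.6, 4.47 and 5.37 at pH 4.6 in cortex. It rose in epidermis and fell in cortex by 1.85 ± 0.34 on the log2 scale, so that the difference of 1.91 ± 0.397 (adjusted p = 0.0309) was lost with cortex left out of the inner mean (adjusted p = 0.333). It was also lost without epidermis pH 4.6 replicate 2 or 3, epidermis pH 5.7 replicate 1 or 3, cortex pH 4.6 replicate 3 or stele pH 5.7 replicate 2. For these 2 genes the epidermis signals at pH 5.7 lie below the added constant, and the size depends on it. With a constant of 1 or 50 in place of 12 the difference was 3.17 or 0.77 for AT5G53990 and 4.03 or 0.75 for AT5G05180. AT5G50370, of the adenylate kinase family, was the named gene with opposite responses. It rose in epidermis from 66.4, 108 and 87.4 to 141, 192 and 147 and in endodermis had 607, 677 and 787 at pH 5.7 and 439.7, 508 and 542 at pH 4.6. The pH groups did not overlap in either tissue. Epidermis rose by 0.803 ± 0.19, the inner mean was -0.32 ± 0.11 (adjusted p = 0.0352), and the difference 1.12 ± 0.22 (adjusted p = 0.0212), called in 31 of 36 alternatives. It was lost without epidermis pH 4.6 replicate 2 and without epidermis pH 5.7 replicate 1 or 3.

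On the other side stood transcripts that fell in epidermis. Of the 19 probe sets that fell there with no inner call, 16 (84.2%) were brightest in epidermis among the 4 tissues, against 26.1% of all probe sets. All inner means lay under a signal of 50 in 11 (57.9%), against 39.1% of all. The same arrays set the class and the brightness, and a fall shows only where the signal starts well above the added constant. These shares are thus a description of the class and not a test. GH9B17, an endoglucanase of glycosyl hydrolase family GH9, had signals of 213, 55.7 and 152 at pH 5.7 and 1.75, 1.91 and 5.16 at pH 4.6 in epidermis. In stele they were 24.7, 26.6 and 74.8 at pH 5.7 and 15.8, 13.4 and 16.2 at pH 4.6, and in cortex and endodermis they lay between 1.63 and 18.7. The epidermis values at pH 4.6 were all below the added constant of 12, so the response of -3.19 ± 0.39 understates the ratio of the signals. The difference was -2.89 ± 0.45 (adjusted p = 0.00313), or -4.64 and -1.59 with a constant of 1 and 50, and the stele groups did not overlap either (stele response -0.88 ± 0.39, adjusted p = 0.252).

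TET12, a tetraspanin, and AT3G07070, of the protein kinase family, had the same layout. TET12 went from 341, 140.1 and 229 to 34.8, 18.7 and 39.7 in epidermis and from 62.2, 79.1 and 100.1 to 23.6, 32.01 and 34.04 in stele. AT3G07070 went from 1186, 390.5 and 648 to 157, 92.1 and 97.2 in epidermis and from 109, 130.4 and 242 to 23.7, 51.7 and 64.7 in stele. For both genes the pH groups lay apart in epidermis and in stele, and cortex and endodermis stayed under a signal of 22. TET12 had a difference of -2.03 ± 0.42 (adjusted p = 0.0297), called in 29 of 36 alternatives and lost without epidermis pH 4.6 replicate 1 or 2 or pH 5.7 replicate 1 or 3. AT3G07070 had a difference of -1.83 ± 0.42 (adjusted p = 0.0475), called in 11 of 36, and its stele response of -1.55 ± 0.36 passed on its own (adjusted p = 0.017). EXPA7 and EXPA18 had signal in the stele arrays too, as given above, and its part in these stele values was not tested.

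AT1G48070 and DPE1 were lower at pH 4.6 in epidermis and brightest in the columella arrays. AT1G48070 had 204, 568 and 436 at pH 5.7 and 42.2, 73.6 and 52.4 at pH 4.6 in epidermis, while all inner arrays lay under 9. In columella it had 4625, 5059 and 7315 at pH 5.7 and 941, 1126 and 1265 at pH 4.6. No pH groups overlapped in epidermis or columella. Epidermis changed by -2.52 ± 0.28, and the difference was -2.51 ± 0.32 (adjusted p = 0.000341). The difference against stele alone was called too (-2.54 ± 0.396, adjusted p = 0.0125). All inner signals of AT1G48070 lie below the added constant, so a fall inside could hardly show. Both differences therefore follow from the fall in epidermis alone and do not compare the tissues' responses. Of 36 alternatives, a pseudocount of 1 ended the call against the inner mean (adjusted p = 0.111). DPE1, the plastid disproportionating enzyme of starch breakdown, had 154, 278 and 175 at pH 5.7 and 37.8, 68.1 and 58.03 at pH 4.6 in epidermis and 1195, 1433 and 1275 at pH 5.7 and 351, 387 and 429.6 at pH 4.6 in columella. Its inner signals lay between 1.47 and 125, and the inner mean was 0.62 ± 0.24 (adjusted p = 0.0629). The difference was -2.29 ± 0.48 (adjusted p = 0.0301), called in 28 of 36 alternatives and lost without any epidermis array at pH 4.6 or epidermis pH 5.7 replicate 2 or 3. The epidermis line marks the lateral root cap too, and its share of these 2 signals was not tested.

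The root hair list held 18 genes, of which 4 were measured. None was called in the difference (limma, adjusted p; 0.444% of all probe sets were), and 3 of 4 had an unadjusted p under 0.05, against 9.37% of all. EXPA7, EXPA18 and XTH26 fell in epidermis, where 1.78% of all fell. EXPA7, an expansin of root hair cells, went from 5412, 1780.0 and 3213 to 1068, 732 and 975 in epidermis. EXPA18, its close relative, went from 3483, 1029 and 2025 to 491, 314 and 362. The pH groups did not overlap for either. The epidermis response was -1.77 ± 0.48 for EXPA7 (adjusted p = 0.0323) and -2.31 ± 0.56 for EXPA18 (0.0157). EXPA7 also had an inner mean response of -0.995 ± 0.28 (adjusted p = 0.0111), with stele at -1.599, which was not called (adjusted p = 0.0696). Its difference was -0.77 ± 0.56, with a 95% interval of -1.93 to 0.38 (adjusted p = 0.738), and that of EXPA18 -1.55 ± 0.65, with an interval of -2.89 to -0.22 (0.428). XTH26, a xyloglucan endotransglucosylase, was dim, with 41.1, 10.7 and 12.1 at pH 5.7 and 3.93, 7.398 and 1.28 at pH 4.6, and changed by -0.94 ± 0.24 (adjusted p = 0.0224). Only the first of these signals lay well above the added constant of 12, so the size of the XTH26 response depends on it. Its difference of -0.85 became -1.66 or -0.35 with a constant of 1 or 50. SCN1, which restricts where on the cell hairs initiate, had 3034, 1883 and 2247 at pH 5.7 and 1845, 1693 and 1776 at pH 4.6, where all values at pH 4.6 lay just under the lowest at pH 5.7, a response of -0.401 ± 0.18 that was not called (adjusted p = 0.229). The median difference of the 4 was -0.81, against 0.01 over all probe sets.

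The largest class of negative differences rose inside without a call in epidermis, and its clearest member was AT1G24095. Its epidermis signals were 289, 275 and 363 at pH 5.7 and 232, 185 and 292 at pH 4.6. In cortex they were 31.5, 34.2 and 35.4 at pH 5.7 and 344, 256 and 235 at pH 4.6, in endodermis 35.7, 30.5 and 41.4 at pH 5.7 and 231, 153 and 188 at pH 4.6, and in stele 41.1, 39.9 and 71.1 at pH 5.7 and 151, 197 and 177 at pH 4.6. At pH 5.7 every epidermis array lay above every inner array and at pH 4.6 the 4 tissues overlapped. The inner mean rose by 2.11 ± 0.13 while epidermis changed by -0.38 ± 0.22 (adjusted p = 0.395). The difference was -2.49 ± 0.25 (adjusted p = 2.63e-05), and it passed against each inner tissue, at -3.03 for cortex, -2.45 for endodermis and -1.99 for stele (adjusted p = 2.92e-05, 0.00032 and 0.0125).

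AT2G32020 was bright in all tissues. Epidermis had 619, 724 and 609.9 at pH 5.7 and 663, 683 and 544 at pH 4.6, with the pH groups mixed. Cortex had 331, 345 and 259 at pH 5.7 and 994, 760.0 and 793 at pH 4.6, endodermis 298, 306 and 281 at pH 5.7 and 953, 970.2 and 778 at pH 4.6, and stele 427, 325 and 277 at pH 5.7 and 589, 597 and 529.6 at pH 4.6. In each inner tissue the pH groups lay apart, and stele rose least. The inner mean was 1.24 ± 0.09 and epidermis -0.05 ± 0.16, a difference of -1.29 ± 0.19 (adjusted p = 0.00168). AT1G11330, of the receptor kinase family, was dim in epidermis, at 2.59 to 7.80 over both pH values. It rose in cortex from 27.8, 17.1 and 19.4 to 363, 114 and 156 and in endodermis from 92.8, 97.2 and 143 to 779, 464 and 457. The difference was -2.01 ± 0.37 (adjusted p = 0.0174), called in 32 of 36 alternatives and lost without epidermis pH 4.6 replicate 1 or 2.

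Glucosyltransferases stood in both directions. UGT84A3, which forms glucose esters of hydroxycinnamates, had 27.2, 14.6 and 25.1 at pH 5.7 and 15.5, 9.296 and 1.204 at pH 4.6 in epidermis. In cortex it went from 34.5, 9.96 and 18.2 to 89.4, 71.6 and 80.7 and in endodermis from 16.8, 15.4 and 12 to 45.6, 84.3 and 80.8. The inner groups lay apart in cortex and endodermis, and a difference of -2.09 ± 0.38 (adjusted p = 0.0163) was called in 34 of 36 alternatives, all but those without epidermis replicate 3 at pH 4.6 or at pH 5.7. With a constant of 1 or 50 it was -3.59 or -0.998. UGT73C1 lay at 0.586 to 19.2 in epidermis and rose in cortex from 2.21, 1.08 and 6.47 to 43.6, 43.6 and 68.3, with a difference of -1.89 ± 0.37 (adjusted p = 0.0213) called in 30 of 36 and lost without any epidermis array at pH 4.6 or epidermis pH 5.7 replicate 3. For UGT73C1 these constants gave -4.23 and -0.76. Of 47 probe sets with a UDP-glycosyltransferase symbol, 1 was called higher (UGT74B1) and 2 lower (UGT84A3 and UGT73C1) in the difference. Of all probe sets, 0.224% were called higher and 0.22% lower. Members were matched by symbol, so genes named by locus alone, such as AT5G53990, called higher above, were not counted. This split therefore does not describe the whole family. Of the 47, 15 had an unadjusted p under 0.05, against 9.37% of all, and their median difference was 0.03. In epidermis 5 rose and 1 fell, where 3.52% and 1.78% of all probe sets did. In the inner mean 11 rose and 2 fell, where 13.1% and 9.74% of all did.

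Of 10 mitochondrial stress genes, 8 were measured, and 2 of them, NDB3 and AT2G41730, rose less in epidermis than inside. Both were called lower in the difference, where 0.22% of all probe sets were. In the inner mean 6 of the 8 rose, as did 6 in cortex, 5 in endodermis and 6 in stele, against 4 in epidermis. Of all probe sets, 13.1% rose in the inner mean, 7.04% in cortex, 5.43% in endodermis, 1.97% in stele and 3.52% in epidermis. The median difference was -0.90, against 0.01 over all probe sets, and 4 of the 8 had an unadjusted p under 0.05, against 9.37% of all. NDB3, an external NAD(P)H dehydrogenase of mitochondria, had 30.3, 62.3 and 46.2 at pH 5.7 and 70.97, 66.4 and 56.8 at pH 4.6 in epidermis. In cortex it went from 24.5, 58.9 and 58.8 to 220.2, 177 and 186, in endodermis from 114, 103 and 88.7 to 741, 437 and 563, and in stele from 32.9, 107 and 73.2 to 313, 318 and 463. All 3 inner tissues separated by pH, and the epidermis arrays overlapped. The inner mean was 2.16 ± 0.18 and epidermis 0.43 ± 0.31 (adjusted p = 0.533), a difference of -1.73 ± 0.35 (adjusted p = 0.0297). The call held in 29 of 36 alternatives, and was lost with each epidermis array left out except pH 5.7 replicate 1.

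AT2G41730 rose on both sides. Epidermis had 357, 643 and 425 at pH 5.7 and 1035, 983 and 1092 at pH 4.6, cortex 483, 337 and 171 at pH 5.7 and 2538, 2274 and 2402 at pH 4.6, and endodermis 492, 283 and 354 at pH 5.7 and 3478, 2573 and 2360.2 at pH 4.6. Stele had 370.3, 326 and 407 at pH 5.7 and 1433, 1491 and 1246 at pH 4.6. No pH groups overlapped, and epidermis had the lowest signals of the 4 tissues at pH 4.6. The responses were 1.15 ± 0.26 in epidermis and 2.56 ± 0.15 in the inner mean, a difference of -1.42 ± 0.303 (adjusted p = 0.0372) that was called in 23 of 36 alternatives. Its probe set is of the type that may share signal with a near copy.

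Of the 8 measured, 7 had a difference below 0, and the others described here did not pass. AT2G21640, whose transcript is widely used as a mitochondrial stress marker, had 43.2, 81.4 and 72.6 at pH 5.7 and 305, 336 and 229 at pH 4.6 in epidermis and responses of 1.98 ± 0.299 there and 3.16 ± 0.17 inside. Its difference of -1.19 ± 0.35 had a 95% interval of -1.90 to -0.47 (adjusted p = 0.157). AT2G04050, of the MATE family, had a difference of -1.57 ± 0.402 (adjusted p = 0.0963). AT5G09570, a small mitochondrial protein, rose by 3.12 ± 0.32 in epidermis and 3.74 ± 0.19 inside, a difference of -0.62 ± 0.37 with an interval of -1.40 to 0.16 (adjusted p = 0.657).

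For the few fermentation and glyoxylate genes measured, no difference was detected. Of 6 genes fixed, 3 were measured, and 0 were called in the difference by limma or had an unadjusted p under 0.05. Of all probe sets 0.444% were called and 9.37% had such a p, so 0 of 3 says little about these genes. Their median response was 2.15 in epidermis, 2.63 in cortex, 2.38 in endodermis and 1.13 in stele, so the inner mean joins unlike responses. PDC2, a pyruvate decarboxylase, had 15.99, 62.4 and 64.5 at pH 5.7 and 389.9, 306 and 325 at pH 4.6 in epidermis, a response of 2.69 ± 0.298, against 2.83 ± 0.17 inside. The groups did not overlap, and the difference of -0.14 ± 0.34 had a 95% interval of -0.85 to 0.57. ICL, the isocitrate lyase of the glyoxylate cycle, rose by 2.15 ± 0.28 in epidermis and 2.05 ± 0.16 inside, with a difference of 0.103 ± 0.32 and an interval of -0.57 to 0.77. AT4G17260, a lactate dehydrogenase, was not called in epidermis (0.32 ± 0.202) and rose inside by 0.72 ± 0.12, with a difference of -0.399 ± 0.23 and an interval of -0.88 to 0.08. These intervals reach 0.08 to 0.77 above 0 and 0.57 to 0.88 below it, so differences of that size could be missed.

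**Figure D3:**
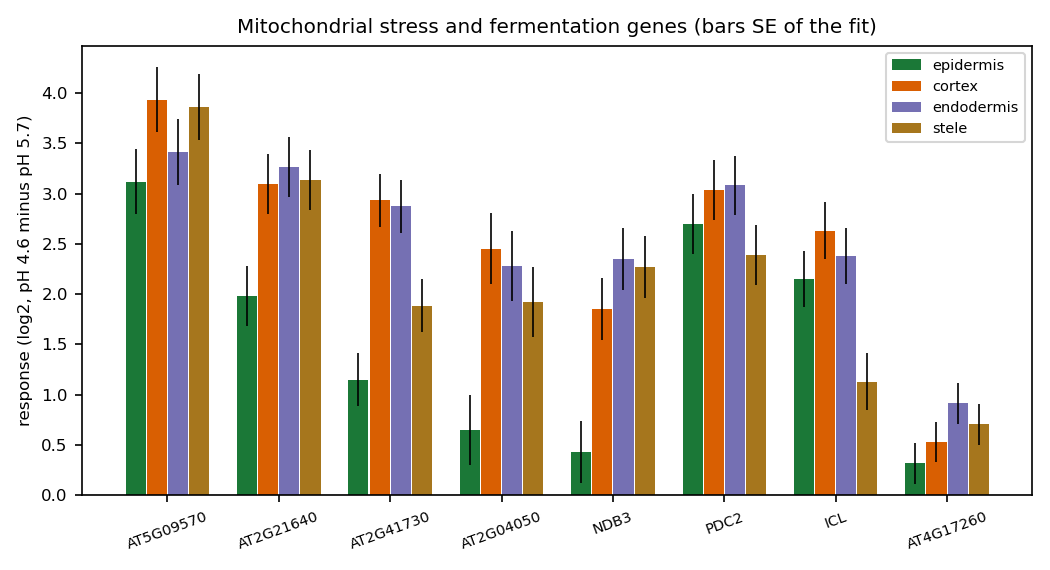
Responses (log2, pH 4.6 minus pH 5.7, bars from 0) of mitochondrial stress and fermentation genes in epidermis, cortex, endodermis and stele, with error bars for the standard error of the fit. NDB3 and AT2G41730 passed the test of the difference, and the other genes shown did not; PDC2 and AT5G09570 stand above 2 in all 4 tissues.

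Of the 21 probe sets that fell inside with no call in epidermis, 9 (42.9%) had both epidermis means under a signal of 50, against 47.4% of all probe sets. All inner means lay under 50 in only 2 (9.52%), against 39.1% of all. The class was thus seldom dim inside, while its share dim in epidermis was about that of all. AT2G21100, of the dirigent family, had 30.5, 11 and 20.5 at pH 5.7 and 23.97, 28.7 and 24.4 at pH 4.6 in epidermis. In cortex it went from 743, 691 and 313 to 78.4, 42.9 and 45, in endodermis from 3581, 4493 and 5398 to 597, 2931 and 2542, and in stele from 1038, 822 and 842 to 594, 287 and 311. All inner groups lay apart, and the fall was largest in cortex, by 3.08 ± 0.42 on the log2 scale. The difference was 2.16 ± 0.49 (adjusted p = 0.0474), called in 12 of 36 alternatives.

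AT1G72230, of the copper-binding cupredoxin family, and AT4G38690 were dim in epidermis, under 7 on all 6 arrays. These signals lie below the added constant of 12, so a fall in epidermis could hardly show. For both genes a positive difference follows from the fall inside alone and does not compare the tissues' responses. AT1G72230 fell in endodermis from 943, 1061 and 1158 to 105, 360.5 and 364. AT4G38690 fell there from 314, 316 and 501 to 38.6, 124 and 91.7. The endodermis groups lay apart for both, and the differences were 1.89 ± 0.42 (adjusted p = 0.0471) and 1.76 ± 0.39 (0.0426), called in 11 of 36 and 12 of 36 alternatives. AT4G39675 was also dim in epidermis and fell in endodermis from 342, 562 and 340.4 to 69.1, 78.8 and 101 and in stele from 1498, 1031 and 797 to 421, 441 and 551. Its difference was 1.79 ± 0.36 (adjusted p = 0.0232), called in 31 of 36 and lost without epidermis pH 4.6 replicate 1 or 3 or pH 5.7 replicate 1. For these 3 genes the positive difference describes a fall inside. With a constant of 1 or 50 it was 2.599 or 1.09 for AT4G38690 and 3.01 or 1.201 for AT4G39675.

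**Figure D4:**
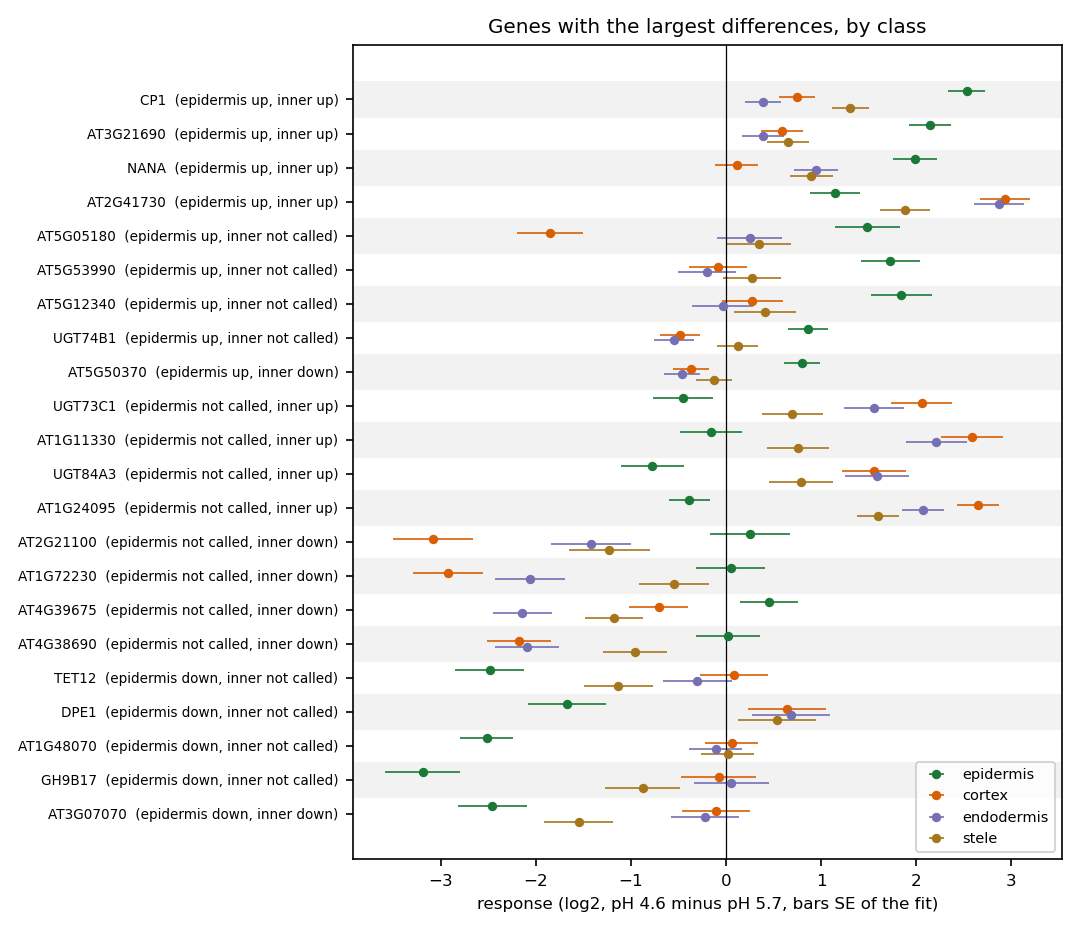
Responses (log2, pH 4.6 minus pH 5.7) of the 22 genes named by class, with bars for the standard error of the fit and 1 colour per tissue; the class of each gene stands beside its name. Epidermis lies to the right of the inner tissues for the 12 genes with a positive difference and to the left for the other 10.

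The tissues were nearer to each other at pH 4.6 than at pH 5.7 for most of these probe sets. The gap between epidermis and the mean of the inner tissues, on the log2 scale, was smaller at pH 4.6 for 73 of the 101 (72.3%), against 55.4% of all probe sets. The median gap was 1.43 at pH 5.7 and 0.84 at pH 4.6, against 0.38 and 0.35 over all. At pH 5.7, epidermis was below every inner tissue in 17 of the 20 probe sets that rose in epidermis with no inner call, against 33.0% of all probe sets. It was above every inner tissue in 17 of the 19 that fell there with no inner call, against 27.2% of all. Among the 27 that rose inside with no epidermis call, epidermis was highest at pH 5.7 in 18. In this class the gap was smaller at pH 4.6 for 16 (59.3%), near the share of all, and its median was 0.926 at pH 5.7 and 0.931 at pH 4.6. The pH 5.7 arrays enter both the difference and these gaps, so the counts are a description and not a separate test.

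Counts over gene families are given against the 0.444% of all probe sets called in the difference and the 9.37% with an unadjusted p under 0.05. Of the 33 lists and families with a probe set, 4 had a called member: mitochondrial stress, UDP-glycosyltransferases, GH9 endoglucanases and dehydrins with their relatives. The other 29 lists held 190 probe sets, of which 0 were called by limma and 25 (13.2%) had an unadjusted p under 0.05. Of 15 GH9 endoglucanases, GH9B17 was called lower in the difference, and 6 had an unadjusted p under 0.05. In epidermis 5 of the 15 fell and in the inner mean 4 fell, where 1.78% and 9.74% of all probe sets fell. Of 18 expansins, 0 were called in the difference and 4 had an unadjusted p under 0.05, while 2 fell in epidermis and 5 fell inside. Of 22 TBL genes, which acetylate wall polysaccharides, 10 fell inside and 2 in epidermis, 0 were called in the difference, and 3 had an unadjusted p under 0.05. The inner mean has smaller errors, so its counts and those of epidermis do not compare the tissues. Of 8 dehydrins and relatives, LTI30 was called.

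The columella arrays took no part in the difference and give a separate reading of the same probe sets. In columella 3334 probe sets were called, 7.01% higher and 7.65% lower. Of the 101, 29 were called higher in columella and 11 lower. All but 1 of the 7 that rose on both sides, more in epidermis, rose in columella (6 of 7, median 1.74). Of the 19 that fell in epidermis with no inner call, 8 fell in columella and 1 rose. Of the 27 that rose inside with no epidermis call, 15 rose in columella and 0 fell, with a median of 0.75. Of the 21 that fell inside with no epidermis call, 1 rose in columella and 0 fell. Of the 20 that rose in epidermis with no inner call, 5 rose and 2 fell. Among the genes described above, AT2G41730 rose by 6.71 ± 0.25 in columella and AT2G32020 by 2.29 ± 0.18. CP1 rose by 1.71 ± 0.23, AT3G21690 by 1.84 ± 0.26 and NANA by 2.24 ± 0.22, each from signals under 40. AT1G24095 was bright in columella at both pH values, with 1026, 1327 and 954 at pH 5.7 and 813, 674 and 853 at pH 4.6, and its response there, -0.49 ± 0.21, was not called (adjusted p = 0.123).

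**Figure D5:**
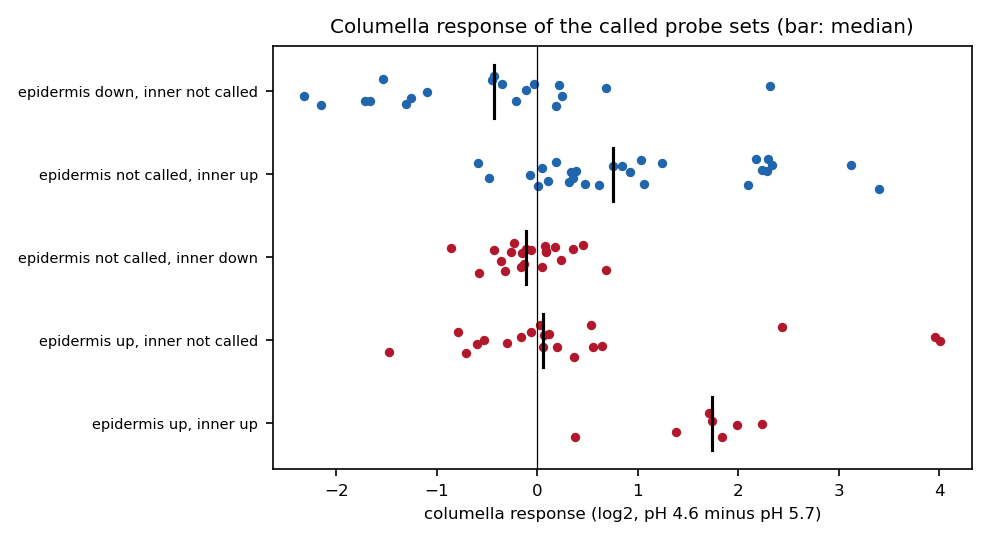
Columella response (log2, pH 4.6 minus pH 5.7) of the called probe sets in the 5 classes with at least 7 members, 1 point per probe set and a black bar for the median of each class. The class that rose on both sides lies to the right of 0 for all 7 points, and the class that rose inside with no epidermis call reaches further right than left.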

How the data were processed

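The authors made the deposited intensity values with MAS5, per the submitters' processing notes, which give no version. They are linear, and each array has a mean of 250.0 after trimming 2% at each end. RNA passed through 2-cycle amplification, per the labels' protocols. No genome build is given in the sources used here. Of 22810 probe sets, 64 controls were set aside. The others had 1 gene for 13513, several for 503 and none for 8730 in the platform annotation. RefSeq (TAIR10.1, names only) matched 13436.

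A constant of 12 was added and log2 taken. limma 3.58.1 in R 4.3.3 fitted a mean for each of 8 groups to 24 arrays, with an intensity trend and no filter (16 residual and 6.84 prior degrees of freedom). Calls are Benjamini-Hochberg adjusted p-values under 0.05 over 22746 probe sets. Columella values come from a fit to 30 arrays. Errors after ± are standard errors of the fit, and n is 3 arrays per group. The number of arrays limits the precision. The comparison, its lists (11) and families (39, by symbol) and the naming rule were chosen with earlier results of these data known. The rule names up to 4 genes per class with the largest difference, a signal of at least 50 in a group and 1 sign against all inner tissues. It also names called or listed members of lists. AT2G32020 was added after its values were seen, since it held in every alternative. SDRB was added after its values were seen too, although its call held in only 11 of 36 alternatives. Control ratios were compared by two-sided exact permutation. The fitting script was tested on simulated data. The alternatives changed the pseudocount, scaling, filter, block, arrays, weights, moderation and inner tissues.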

Additional observations from a re-analysis of the deposited data

Results flagged for a closer look

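The epidermis response differed from the inner mean by a test of the difference itself for 101 probe sets. The 22 genes named by class are listed here for that reason, with the difference on the log2 scale.

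Differences above 0 were 2.16 for AT2G21100, 1.91 for AT5G05180, 1.89 for AT1G72230, 1.79 for AT4G39675, 1.76 for AT4G38690, 1.73 for AT5G53990, 1.71 for CP1, 1.62 for AT5G12340, 1.60 for AT3G21690, 1.33 for NANA, 1.16 for UGT74B1 and 1.12 for AT5G50370. Of these 12 genes, CP1 and AT3G21690 were called in all 36 alternatives.

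Differences below 0 were -2.89 for GH9B17, -2.51 for AT1G48070, -2.49 for AT1G24095, -2.29 for DPE1, -2.09 for UGT84A3, -2.03 for TET12, -2.01 for AT1G11330, -1.89 for UGT73C1, -1.83 for AT3G07070 and -1.42 for AT2G41730. GH9B17 and AT1G24095 were called in all 36.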

How the results depend on the processing

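The count of 101 became 179 with a pseudocount of 50 (63 higher, 116 lower) and 355 with array weights (205 higher, 150 lower). Setting aside probe sets at least 4-fold apart in brightness left 49 calls. That was done without a new fit. The count became 35 without cortex in the inner mean, 39 without endodermis and 195 without stele. With a pseudocount of 1, the counts were 122 against cortex, 73 against endodermis and 3 against stele. With a pseudocount of 50 they were 242 against endodermis and 29 against stele, and with quantile normalization 12 against stele. Leaving out single arrays gave 30 to 219 for the difference, 79 to 279 against cortex, 43 to 232 against endodermis, 0 to 31 against stele, 512 to 2010 for epidermis and 4536 to 5438 for the inner mean. The epidermis count was 512 and 2010 without pH 4.6 replicate 2 and pH 5.7 replicate 2, and 600 and 521 without pH 5.7 replicates 1 and 3. The count against cortex was 79 to 123 without any epidermis array at pH 4.6, epidermis pH 5.7 replicate 3, any cortex array at pH 4.6, or cortex pH 5.7 replicate 1 or 2. That against endodermis was 43 to 80 without any epidermis array at pH 4.6, epidermis pH 5.7 replicate 3 or any endodermis array at pH 5.7, and 232 without epidermis pH 5.7 replicate 2. Against stele, limma called 0 without epidermis pH 4.6 replicate 1, epidermis pH 5.7 replicate 3 or stele pH 4.6 replicate 2 (1678, 1500 and 1658 at an unadjusted p under 0.05). It called 2 without stele pH 5.7 replicate 2, 10 without endodermis pH 5.7 replicate 2, 14 without stele pH 4.6 replicate 3, 25 without stele pH 5.7 replicate 1 and 31 without epidermis pH 5.7 replicate 2. PDC2 turned to 0.11 with a pseudocount of 1 and to 0.09 and 0.11 without epidermis pH 5.7 replicates 2 and 3, in a range of -0.62 to 0.11 over single arrays left out. ICL turned to -0.046 with quantile normalization, -0.36 without stele in the inner mean, and -0.03 and -0.17 without epidermis pH 5.7 replicates 1 and 3, in a range of -0.17 to 0.504. AT2G21640 passed with a pseudocount of 50 (adjusted p = 0.03498), and AT2G04050 with that (0.0381), quantile normalization (0.0451) and array weights (0.0377). The cause of these changes was not tested.

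Replicate numbers were not shown to pair the arrays: same-numbered arrays' deviations correlated with r of -0.11 to 0.15. With the replicate number as a block, 83 probe sets were called, 77 of them among the 101, and 15 of 50 named genes lost the call. Signals near the constant of 12 limit what a fall can show.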
